A study of Mus musculus with 24 samples.

Results

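LSD1 binding before and after fat cell differentiation was described from 2 peak lists obtained by chromatin immunoprecipitation and sequencing (ChIP-seq) with the same LSD1 antibody in control 3T3-L1 cells, 1 list for day 0 and 1 for day 7. Every peak of both lists was taken: 3024 at day 0 and 8303 at day 7, together 11327 of the 56252 peaks in the 6 lists of the series. The other 4 lists hold LSD1 in 3T3-L1 cells labelled as overexpressing LSD1 and Nrf1, each at both days. 3T3-L1 is an established mouse preadipocyte line, and the cells used here carried the genotype label Control and were at passages 13 to 18. Day 0 cells were confluent and undifferentiated in medium with 10% FBS. Day 7 cells had been induced at day 0 with isobutylmethylxanthine (500 µM), rosiglitazone (10 µM), dexamethasone (1 µM) and insulin (10 µg/ml), and at day 3 the medium was replaced by one with insulin. RNA-seq of the same line and days, with 3 biological replicates per day, gave the expression values. Each peak list is 1 sample without a replicate, so differences in binding between the days are descriptions without a test.

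LSD1, the product of Kdm1a, is a demethylase that removes methyl groups from lysines of histone H3 and of other proteins. It has no sequence-specific DNA-binding domain of its own and is brought to chromatin by partners such as the CoREST scaffolds (Rcor genes), the histone deacetylases Hdac1 and Hdac2 and DNA-binding factors. In fat cells it is known as a regulator of the adipogenic and oxidative gene programs.

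A first view of the bound sequences comes from promoters among the highest scores in each class of binding, where the score is the deposited value by which peaks are ranked in a list. The 250 bases before the RefSeq start site are shown (mouse build GRCm38, which is mm10), each read 5′ to 3′ on the strand of its gene. Polr2a, the largest subunit of RNA polymerase II (chr11:69758634-69758883, minus strand), and H2-DMa, an antigen-presentation gene that shares its peak with Brd2 (chr17:34122582-34122831, plus strand), were bound on both days. Capitals mark letters found by exact search on either strand: the GC box (GGGCGG), the NRF1 palindrome (GCGCATGC, whose 2 matches in H2-DMa overlap), the ETS site (CCGGAAG), the NF-Y box (CCAAT) and the TATA box (TATAAA).
Polr2a: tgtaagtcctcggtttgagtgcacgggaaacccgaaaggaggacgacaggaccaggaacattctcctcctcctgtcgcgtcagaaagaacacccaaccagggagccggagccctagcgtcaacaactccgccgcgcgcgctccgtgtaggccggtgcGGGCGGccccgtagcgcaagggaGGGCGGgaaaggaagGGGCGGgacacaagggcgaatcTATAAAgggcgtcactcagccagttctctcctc
H2-DMa: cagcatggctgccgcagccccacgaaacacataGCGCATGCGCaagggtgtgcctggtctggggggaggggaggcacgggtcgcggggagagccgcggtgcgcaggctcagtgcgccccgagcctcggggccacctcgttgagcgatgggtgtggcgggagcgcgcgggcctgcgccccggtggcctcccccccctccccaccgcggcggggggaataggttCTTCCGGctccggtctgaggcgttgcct

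Promoters of 3 genes that were in the day 7 list alone, and that of Cebpb, whose peak had a score of 87.4 at day 0 and 1533 at day 7, come next. Ddit4 is a stress-induced inhibitor of mTOR (chr10:59951771-59952020, minus strand), Mt1 is a metallothionein (chr8:94178839-94179088, plus strand), Mrps18b is a mitochondrial ribosomal protein (chr17:35916441-35916690, minus strand) and Cebpb is an early adipogenic transcription factor (chr2:167688665-167688914, plus strand). The capitals have the same meaning, and the first GC boxes of Cebpb overlap.
Ddit4: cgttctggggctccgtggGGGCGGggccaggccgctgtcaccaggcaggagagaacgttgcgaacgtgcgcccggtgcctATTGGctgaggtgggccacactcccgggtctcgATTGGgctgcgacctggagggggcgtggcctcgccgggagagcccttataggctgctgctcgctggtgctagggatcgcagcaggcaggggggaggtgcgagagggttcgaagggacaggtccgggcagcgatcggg
Mt1: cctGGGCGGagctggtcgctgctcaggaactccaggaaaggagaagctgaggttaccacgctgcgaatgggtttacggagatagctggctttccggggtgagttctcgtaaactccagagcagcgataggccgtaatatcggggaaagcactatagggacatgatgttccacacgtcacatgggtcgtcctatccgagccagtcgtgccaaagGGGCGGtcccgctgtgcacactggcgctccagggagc
Mrps18b: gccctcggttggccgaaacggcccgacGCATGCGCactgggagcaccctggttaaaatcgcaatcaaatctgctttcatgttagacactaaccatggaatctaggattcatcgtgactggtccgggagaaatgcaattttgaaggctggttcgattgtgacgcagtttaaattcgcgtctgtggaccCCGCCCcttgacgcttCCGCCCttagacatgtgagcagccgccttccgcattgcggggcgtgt
Cebpb: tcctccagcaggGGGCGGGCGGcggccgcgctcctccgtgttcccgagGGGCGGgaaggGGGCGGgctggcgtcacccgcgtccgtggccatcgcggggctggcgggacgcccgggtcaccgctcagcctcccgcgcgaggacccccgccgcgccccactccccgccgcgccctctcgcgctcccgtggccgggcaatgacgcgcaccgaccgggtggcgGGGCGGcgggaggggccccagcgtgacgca

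The promoters of Ap2s1, a subunit of the clathrin adaptor complex (chr7:16738194-16738443, plus strand), and Cenpj, a centriole protein (chr14:56571847-56572096, minus strand), were in the day 0 list alone.
Ap2s1: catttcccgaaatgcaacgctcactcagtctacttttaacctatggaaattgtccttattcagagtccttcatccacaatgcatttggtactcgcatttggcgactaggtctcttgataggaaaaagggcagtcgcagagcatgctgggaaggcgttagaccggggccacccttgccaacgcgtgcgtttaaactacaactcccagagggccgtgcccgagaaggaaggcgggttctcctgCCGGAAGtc
Cenpj: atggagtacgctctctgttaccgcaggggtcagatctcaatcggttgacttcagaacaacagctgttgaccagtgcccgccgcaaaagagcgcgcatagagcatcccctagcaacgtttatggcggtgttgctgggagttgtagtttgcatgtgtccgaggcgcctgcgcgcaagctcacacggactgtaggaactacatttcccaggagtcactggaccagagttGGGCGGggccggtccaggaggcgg

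The highest-scoring day 7 peak outside promoters looked unlike all of these. Its central 300 bases (chr17:4626269-4626568, plus strand) consist entirely of 45 copies of CATTC, in capitals, and 15 copies of CACTC, and they hold no CpG.
chr17 repeat peak: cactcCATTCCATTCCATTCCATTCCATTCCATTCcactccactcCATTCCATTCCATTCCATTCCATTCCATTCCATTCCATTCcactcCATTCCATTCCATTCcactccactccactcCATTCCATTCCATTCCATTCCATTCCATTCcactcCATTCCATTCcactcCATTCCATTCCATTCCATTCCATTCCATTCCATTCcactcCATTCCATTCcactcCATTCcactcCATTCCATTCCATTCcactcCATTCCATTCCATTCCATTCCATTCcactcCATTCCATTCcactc

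The 250 bases printed for the 8 genes hold between 14 CpG (Ap2s1) and 41 CpG (Cebpb), and between 52.4% (Ap2s1) and 81.6% (Cebpb) G or C. Over all 32817 RefSeq promoter windows of 300 bases (250 before to 50 after a start), 35.6% held the GC box, 2.71% the NRF1 letters, 8.86% the ETS letters, 37.4% the NF-Y box and 13.6% the TATA box on either strand. A match describes letters and is no evidence of a bound factor.

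The RNA values showed the cells before and after differentiation. The summed level of the 30 genes of the adipocyte program was 1988 to 2257 CPM (counts scaled to the size of the library) in the 3 day 0 libraries and 17740 to 19961 in the 3 day 7 libraries, and that of 24 preadipocyte and fibroblast genes was 65671 to 67564 and 24698 to 25379. Macrophage, skeletal muscle and endothelial markers summed to at most 20.8, 1.58 and 2.59 CPM in every control library. Library totals were 27881281 to 37565527 counts. edgeR's quasi-likelihood test with Benjamini-Hochberg adjustment called 3107 of 13082 genes higher (23.8%) and 3224 lower (24.6%) at day 7. In such bulk samples, fewer cells of a type and less RNA per cell cannot be told apart. Kdm1a itself had no peak at its promoter in either list. Its level was 80.2, 87.7 and 85.4 CPM at day 0 and 67.1, 68.6 and 75.7 CPM at day 7, so the groups did not overlap, and the fall of 0.26 on the log2 scale (log2 change -0.26, SE 0.10, adjusted p = 0.0386) was lost under several alternatives.

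The day 7 list was longer and reached far higher scores than the day 0 list. The median score was 74.7 at day 0 (quartiles 59.6 and 99.8, highest 659) and 127 at day 7 (quartiles 80.9 and 202, highest 3100), and both lists began at 50. At day 7, 5 peaks shared the highest value of 3100, so their order cannot be read. A score of at least 100 was reached by 751 peaks at day 0 and 5229 at day 7. The lists covered 4.10 Mb and 10.6 Mb. The read depth behind each list and the way in which the input samples entered the peak calling are not given in the sources used here, so a difference in list length and a difference in depth or in the yield of the precipitation cannot be told apart.

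**Figure D1:**
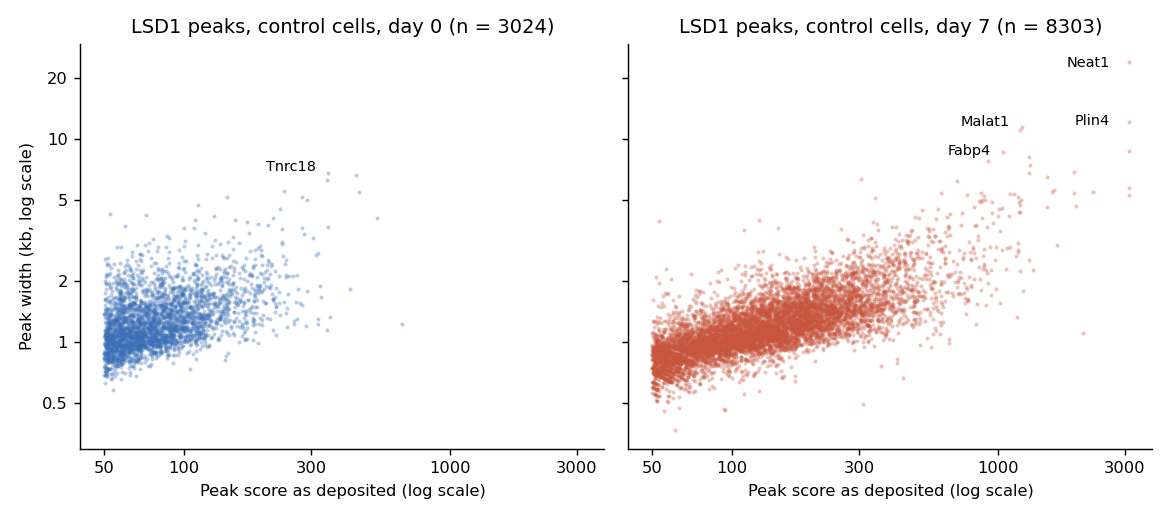
Width (kb, log scale) against the deposited score (log scale) of each LSD1 peak in control cells, 1 point per peak, with day 0 on the left (3024 peaks) and day 7 on the right (8303 peaks). The day 7 points extend to a score of 3100 and to a width of 23860 bases at Neat1, while the day 0 points end at a score of 659 and a width of 6774 bases at Tnrc18.

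The overlap of the lists depended on their lengths. Of the day 0 peaks, 2551 (84.4%) overlapped a day 7 peak by at least 1 base, and of the day 7 peaks 2556 (30.8%) overlapped a day 0 peak. With the day 7 list reduced to its 3024 highest scores, the length of the day 0 list, the shares were 48.8% and 48.1%. With the full lists, the share rose with the score in both lists. With each list cut into 10 bins of equal size by score, it went from 71.6% in the lowest day 0 bin to 98.3% in the highest, and from 11.6% to 67.3% at day 7. Day 0 peaks found at day 7 had a median score of 77.1 against 62.9 for the 473 that were not. The 2556 shared day 7 peaks had a median of 183 against 109 for the other 5747.

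**Figure D2:**
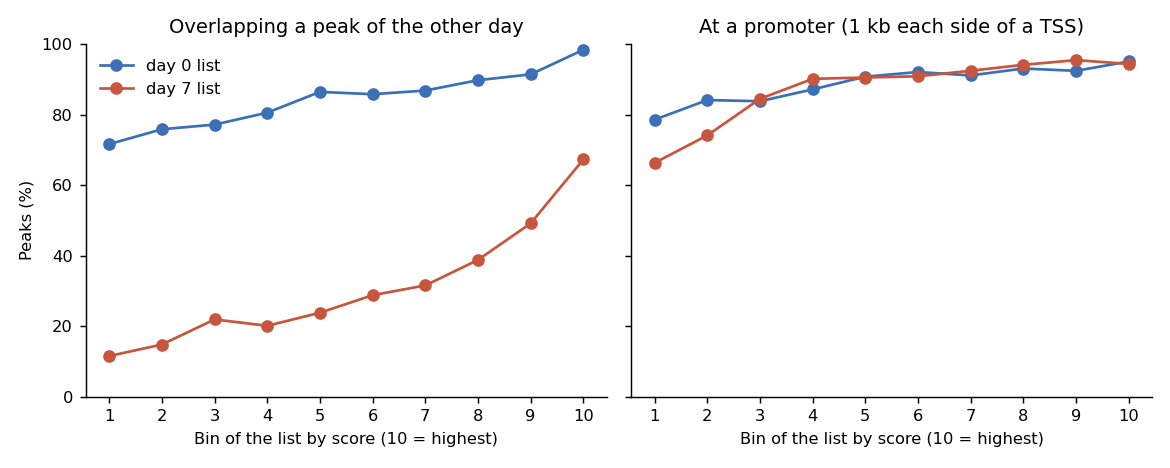
Share of peaks (%) that overlapped a peak of the other day (left) and that lay at a promoter (right), in 10 bins by the score within each list, with 302 or 303 peaks per point at day 0 and 830 or 831 at day 7. The shared part climbs from 71.6% to 98.3% at day 0 and from 11.6% to 67.3% at day 7, and the promoter part climbs from 78.5% to 95.05% and from 66.3% to 94.3%.

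The highest peaks of the lists were in part different sites. Of the 100 highest peaks at day 0, 98 were found at day 7, but 18 of them overlapped one of the 100 highest at day 7. For the first 500 the counts were 477 and 161. Of the 100 and 500 highest at day 7, 83 and 373 were found at day 0. Over the 2582 overlapping pairs, Spearman's correlation was 0.27 for the scores and 0.47 for the widths, a description across peaks of 2 libraries. The day 7 score was the higher one in 88.7% of the pairs, and the day 7 peak was the wider one in 57.4%.

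Most of the strongest day 0 sites were also in the day 7 list, except the peak with rank 4 (score 442), over ribosomal RNA gene models, which had none there. The highest, with a score of 659, lay at the promoter of Banp, which encodes a factor that binds CTCGCGAG at CpG islands, and of the gene model Gm27011. At day 7 the same site had 538 and rank 231. Zfp36l2, an mRNA decay factor, had 530 and 860. The peak shared by Brd2, a bromodomain reader of acetylated histones, and H2-DMa had 457 and 3100. Polr2a had 419 and 1673. The Tnrc18 peak had 348 and overlapped 2 day 7 peaks of 377 and 487, and Slc38a2, an amino acid transporter, had 319 and 778.

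In the day 7 list alone, the highest promoter scores belonged to Ddit4 (1972, rank 8), Mt1 (1933, rank 9) and Mrps18b (1924, rank 10). Mrps18b shares its peak with Ppp1r10, a regulator of protein phosphatase 1 that already had a peak of 84.9 at day 0. Next came Iqcn at 1627, on the peak that also covers Jund, and A530013C23Rik at 1533, on the peak of Cebpb. Both Jund (185) and Cebpb (87.4) were in the day 0 list, so these neighbours entered through a wider peak. The same held for Tns2, a focal adhesion protein (1309, on a peak that overlapped a day 0 peak of 50.9), and for Mascrna, processed from the Malat1 transcript (1227, against 81.01). The chaperone Hspa8 had 1219, with no day 0 peak under it.

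Peak width separated the days most at a small number of genes. The median width was 1217 bases at day 0 and 1141 at day 7, while 8 peaks at day 0 and 30 at day 7 were 5 kb or wider. Spearman's correlation of width with score was 0.44 at day 0 and 0.76 at day 7. The widest day 7 peak covered 23860 bases over Neat1, a nuclear long non-coding RNA that scaffolds paraspeckles (chr19:5822424-5846283), where day 0 had 3 separate peaks of at most 3675 bases. It was followed by 12145 bases over Plin4, a lipid droplet coat protein (chr17:56098623-56110767), where the widest day 0 peak had 5163 bases. Malat1, also a nuclear non-coding RNA, had 11422 (chr19:5793484-5804905) against 1033. Hmox1, heme oxygenase (chr8:75093129-75104180), had 11052, and day 0 held none. Fabp4, the fatty acid binding protein of fat cells, had 8625 (chr3:10200404-10209028) with none at day 0.

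Wide day 7 peaks covered whole genes. Among 11708 genes of at least 3 kb that were tested in RNA, the day 7 peaks covered 80% or more of 13 genes and the day 0 peaks of 2. They included Hmox1, Fabp4, Plin4, Hspa8, Pim3, Btg1, Jun, Ddit3, Hspa5, Dnajb1, Zfp36l2 and Txnip. At 50% or more the counts were 41 and 6. Of the 41 genes, 30 belonged to the 1171 genes with the highest RNA levels at day 7 (the top 10%), and the median gene of the 41 stood at percentile 95.3. Short length was shared as well, with a median of 4512 bases. Of the 1171 genes, 30 were thus covered to 50% or more at day 7. The part of RNA level and of gene length in the coverage was not tested.

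RNA of the fully covered genes moved in both directions. Fabp4 stood at 8.21, 9.57 and 18.2 CPM at day 0 and at 4325, 3579 and 5343 CPM at day 7. All day 7 values were far above the day 0 values (log2 change 8.52, SE 0.35, edgeR adjusted p = 2.01e-09). Plin4 had 111, 107 and 112 CPM and then 738, 632 and 722 CPM (2.66, SE 0.10, adjusted p = 1.24e-09). Hmox1 had 258, 283 and 270 CPM and then 550, 673 and 515 CPM (1.10, SE 0.12, adjusted p = 1.22e-05). These 3 genes rose without overlap between the days. Hspa8 had 664, 700 and 634 CPM and then 686, 607 and 581 CPM, which overlap (-0.09, adjusted p = 0.691), although its peak was found at day 7 alone. Jun, a subunit of AP-1, fell (-1.19, adjusted p = 1.17e-06). Neat1 had 259, 99.7 and 141 CPM at day 0 and 598, 544 and 699 CPM at day 7, and it rose (1.88, SE 0.38, adjusted p = 0.00137). Malat1 rose as well, from 765, 242 and 326 CPM to 1444, 1298 and 1622 CPM (1.71, SE 0.40, adjusted p = 0.00369). In both RNAs the first day 0 library was well above the other 2.

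8 peaks of the day 0 list were 5 kb or wider, among them the one at Plin4 given above. Tnrc18 led with 6774 bases (chr5:142817338-142824111), where day 7 had peaks of 2315 and 4130 bases, and was followed by 6642 bases over ribosomal RNA and long non-coding RNA gene models on chr17:39842517-39849158. That peak (score 442) had no counterpart in the day 7 list. Pisd-ps2, a pseudogene, had 6264 bases at day 0 and 6347 at day 7. Rarg, a retinoic acid receptor, had 5561 and 5437, and Brd2 5489 and 5757. 2 further wide day 0 peaks, of 4729 and 4294 bases, lay over 5S ribosomal RNA genes on chr8 (chr8:123607678-123612406 and chr8:123543807-123548100) and were absent at day 7. These regions are repeated in the genome, and how reads with several placements were handled is not given in the sources used here.

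Both lists consisted mainly of promoter peaks. A peak was assigned to a promoter when it overlapped the 1 kb on either side of an annotated start site (TSS). This held for 2685 peaks at day 0 (88.8%, Wilson 95% interval 87.6% to 89.9%) and 7245 at day 7 (87.3%, 86.5% to 88.0%), while such windows make up 1.98% of the genome. Intergenic peaks were 6.78% at day 0 and 7.15% at day 7, intron peaks 3.74% and 4.50%, and exon peaks 0.69% and 1.08%, so the intervals of the promoter share overlapped. The intervals cover counting error only. The midpoint of a promoter peak lay at a median of 41 bases after the TSS at day 0 and 52 bases after it at day 7, and within 500 bases of it for 92.1% and 92.7% of promoter peaks. More than 1 gene was hit by 22.3% and 20.5% of promoter peaks, which then share 1 score.

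Promoter sites were shared between the days more often than other sites. Of day 0 peaks, 90.02% at promoters, 31.0% in introns and 42.9% in intergenic sequence were found at day 7. Of day 7 peaks the shares found at day 0 were 33.5%, 10.2% and 14.3%. Median scores outside promoters were also lower, for example 71.5 in introns against 134 at promoters at day 7.

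The strongest peaks outside promoters were few and of distinct kinds. At day 7 the CATTC repeat printed above (chr17:4625862-4626975, score 2088, rank 7) came first and had no day 0 peak. 3 of the next sites lay over small nuclear RNA gene models: chr5:115489049-115491319 (1349 against 180 at day 0), chr11:101641232-101643474 (1205 against 153) and chr11:101644757-101646467 (941 against 81.9). A site near Mir23a on chr8:84200247-84204611 had 1196 against 228. The first intron peak lay in Agt, which encodes angiotensinogen (chr8:124557964-124563323, score 1153, 5360 bases), with none at day 0. Agt also had a day 7 promoter peak of 208, and its RNA rose (log2 change 3.96, SE 0.41, edgeR adjusted p = 7.16e-06). At day 0 the ribosomal RNA site led, followed by a site in Neat1 (346), an intergenic site on chrX:75673638-75674781 (345, at day 7 130) and a site in Plin4 (276). The AP-1 letters TGANTCA were found in the central 300 bases of 14.5% of the 1058 day 7 peaks outside promoters and in 8.03% of windows 5 kb away, and GGGCGG in 26.5% and 6.81%.

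Bound promoters were then counted by gene. Of 21000 protein-coding genes, 2957 had a promoter peak at day 0 (14.1%), 7727 at day 7 (36.8%) and 2692 on both days (12.8%). Over all 26180 annotated genes the counts were 3279 and 8497, with 2992 on both days, 5505 at day 7 alone and 287 at day 0 alone. The genes shared between the days were 91.2% of the day 0 genes and 35.2% of the day 7 genes. Among the 13080 genes tested in RNA that have an annotated start, 3003 were bound at day 0 (23.0%) and 7822 at day 7 (59.8%), and these 2 shares are the background for the lists of genes below.

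Bound promoters belonged mostly to transcribed genes on both days. Of 4711 protein-coding genes with no count in any of the 6 control libraries, 12 were bound at day 0 (0.25%) and 20 at day 7 (0.42%). All 1453 olfactory and vomeronasal receptor genes and all 49 keratin genes were without a peak in either list. Among tested genes ranked by RNA level of the same day, in CPM per kb of transcript, the bound share climbed from 2.45% in the lowest of 10 bins to 36.4% in the highest at day 0. At day 7 it climbed from 7.11% in the lowest bin to 81.4% in the last bin but one, and was 79.3% in the highest. The median level over both days was 17.1 CPM per kb for genes bound on both days, 13.9 for day 7 alone, 10.8 for day 0 alone and 2.83 for genes bound on neither day.

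**Figure D3:**
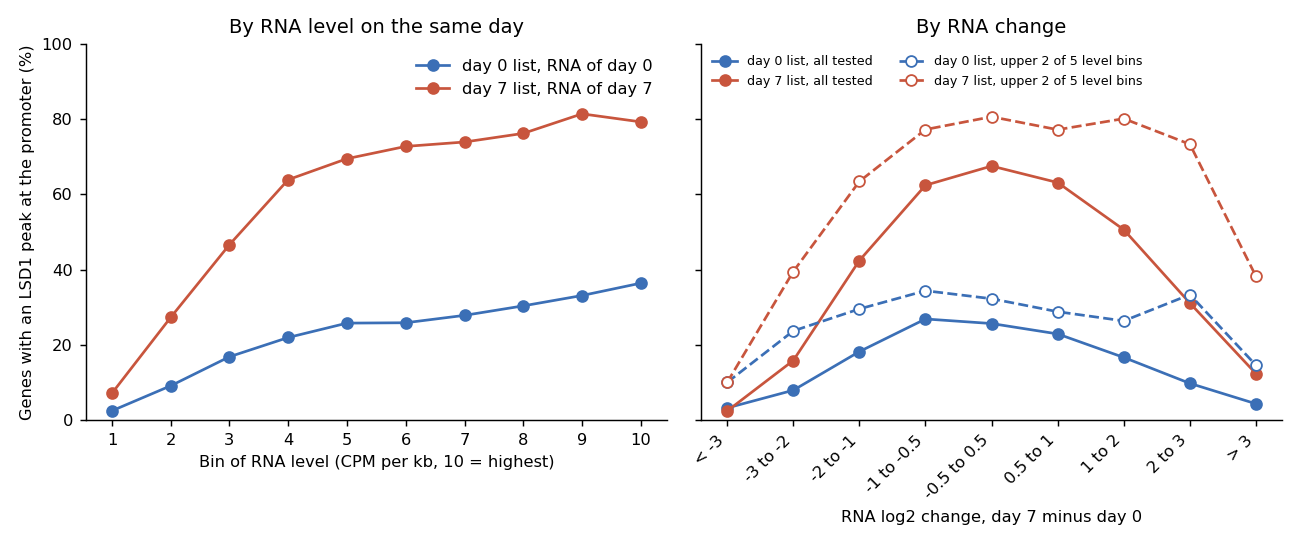
Share of genes (%) with an LSD1 peak at the promoter, in 10 bins by RNA level on the same day (left) and by log2 change in RNA from day 0 to day 7 (right). Filled points are all tested genes, open points the genes in the upper 2 of 5 bins of RNA level. The left curves climb with level to 36.4% (day 0 list) and 81.4% (day 7 list), and on the right the filled day 7 points are highest near no change and go down to 12.3% for genes that rose by more than 3 and 2.4% for genes that fell by more than 3.

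Genes whose RNA changed most were bound least often. Of the 6744 tested genes that changed by at most 0.5 on the log2 scale, 69.7% were bound on at least 1 of the days. The share was 31.5% of 267 genes that rose by 2 to 3, and 12.6% of the 325 (41 genes) that rose by more than 3. It was 18.1% of 177 genes that fell by 2 to 3 and 4.0% of the 125 (5 genes) that fell by more than 3. These genes were also low, with a median of 1.05 CPM per kb for the largest rises and 0.78 for the largest falls against 11.5 for the least changed. Within the upper 2 of 5 bins of RNA level the shares were 82.6% for changes of at most 0.5, 81.2% for rises of 1 to 2, 45 of 60 genes for rises of 2 to 3 and 38.2% (21 of 55 genes) for rises above 3. For changes of 0.5 to 1 in the same bins they were 79.8% for falls and 79.3% for rises. For larger falls they were lower than for rises of equal size. They were 66.4% for falls of 1 to 2, 18 of 38 genes for falls of 2 to 3 and 1 of 10 for falls above 3. Counting the day 0 list only, falls of 1 to 2 had 29.5% and rises of 1 to 2 had 26.4%. For changes of 2 to 3 that list had 23.7% for falls and 33.3% for rises.

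Pooled over all RNA levels, binding on either day did not go with 1 direction of change. Of 2739 genes bound on both days, 600 rose (21.9%) and 765 fell (27.9%), with a median log2 change of -0.04. Of 5083 bound at day 7 alone, 1256 rose (24.7%) and 1201 fell (23.6%), with a median of 0.01. Of 264 bound at day 0 alone, 54 rose (20.5%) and 71 fell (26.9%), with a median of -0.06. Among the 4994 genes bound on neither day, 23.9% rose and 23.8% fell (median -0.01), close to the 23.8% and 24.6% over all genes. The surplus of falls in the class bound on both days lay among highly transcribed genes: in the highest of 5 bins of level, 21.0% rose and 38.9% fell in that class, and 24.8% rose and 38.8% fell among genes bound on neither day. Across 10 bins of the day 7 score the share that rose ranged from 21.1% to 26.2% and the share that fell from 22.4% to 28.5%.

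CpG number and RNA level went with binding together. Sequences matched for 10343 of the 13080 tested genes, some with several starts, which gave 13141 windows of 300 bases. The median window held 25 CpG for genes bound on both days, 23 for day 7 alone, 20 for day 0 alone and 11 for neither day. The day 7 list bound 9.86% of windows with fewer than 5 CpG and 79.1% of those with 40 or more. Within the highest of 5 bins of RNA level, 83.5% of windows with 10 or more CpG and 39.0% of those with fewer were bound at day 7. In the lowest bin the shares were 28.9% and 4.21%. At day 0 they were 36.5% and 17.0% in the highest bin. Level and CpG number are themselves related among genes, and their separate parts were not tested.

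**Figure D4:**
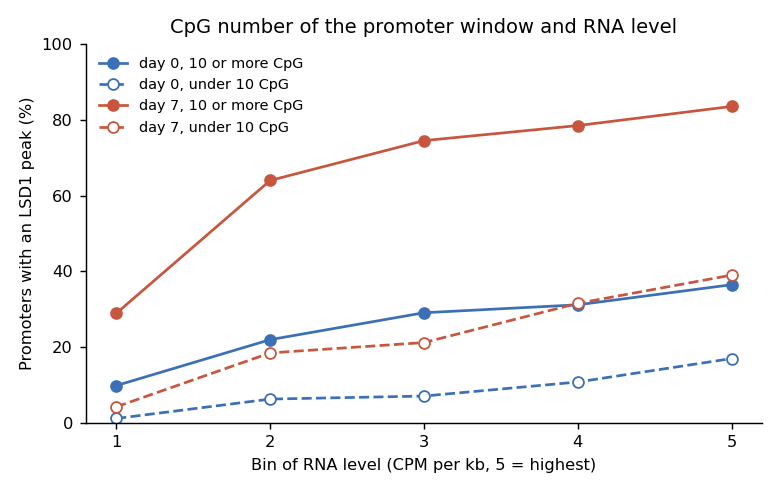
Share of promoter windows (%) with an LSD1 peak in 5 bins of RNA level, for windows with 10 or more CpG (filled points, solid lines) and fewer than 10 (open points, dashed lines), in the day 0 and the day 7 list. In each bin and on each day the CpG-rich windows lie above the others, up to 83.5% against 39.0% at day 7 and 36.5% against 17.0% at day 0 in the highest bin.

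Short sequence motifs were not distributed evenly over these classes, which differ in CpG number as given above. The letters CTCGCGAG, which the protein of Banp binds, occurred in 3.49% of windows of genes bound on both days, 2.05% for day 7 alone and 0.72% for neither day (1.77% of all tested windows). Windows with them were bound in 40.5% at day 0 and 82.8% at day 7, against 27.1% and 68.9% of all windows with 10 or more CpG. The NRF1 letters occurred in 6.19%, 6.81% and 2.93%, and those of YY1 (ATGGCGGC) in 6.15%, 6.25% and 2.62%. TATA boxes went the other way with 5.93%, 5.05% and 10.3%, as did the AP-1 letters with 3.53%, 4.18% and 7.54% and the C/EBP letters TTGCNNAA with 7.24%, 6.60% and 10.9%. CCAAT, printed in Ddit4, occurred in 34.9%, 39.3% and 38.5%, so it varied little. In the 259 windows of genes bound at day 0 alone, CTCGCGAG occurred in 0.39%, the NRF1 letters in 2.70% and those of YY1 in 3.86%. TATA boxes occurred there in 3.47%, the AP-1 letters in 5.79%, the C/EBP letters in 7.34% and CCAAT in 35.9%. All searches used both strands.

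Most genes of the complexes that LSD1 belongs to had a peak at day 7, as did most of all tested genes. Of 20 tested genes of the list of LSD1 and its complexes, 9 were bound at day 0 (45%) and 16 at day 7 (80%). Over all tested genes 23.0% and 59.8% were bound. At a score of at least 100, 11 of all 22 members were bound at day 7 (50%) beside 41.5% of tested genes. In RNA 1 of the 20 rose and 4 fell, while over all genes 23.8% rose and 24.6% fell. Rcor1, the CoREST scaffold, had scores of 52.4 and 230, and its RNA did not pass the test (44.6, 33.4 and 43.8 CPM, then 34.6, 28.5 and 30.9 CPM, log2 change -0.37, adjusted p = 0.467). Ctbp1, a corepressor, had 136 and 492 and fell (-0.65, SE 0.11, adjusted p = 0.000442). Zmym2, a zinc finger subunit, had 78.4 and 324 and rose (0.61, adjusted p = 0.0286), a call lost in 5 of the 6 fits that leave out 1 control library (adjusted p 0.058 to 0.109). Hdac1 (125) and Hdac2 (106) entered the list at day 7, and Hmg20b, a CoREST subunit, was in the day 0 list alone with 63.3. The gene of the respiratory factor Nrf1 had 109 and 315 and fell in RNA (-0.39, SE 0.14, adjusted p = 0.0344), a call lost under some alternatives.

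Among adipogenic transcription factors the early C/EBP genes had the strongest peaks. Of 26 tested factors, 6 were bound at day 0 (23.0% over all tested genes) and 16 at day 7, a share of 61.5% beside 59.8% over all tested genes. In RNA 15 rose and 3 fell. Cebpb, induced early in adipogenesis, went from a score of 87.4 (rank 1065, 1432 bases) to 1533 (rank 14, 6520 bases). Its RNA stood at 41.3, 48.7 and 38.1 CPM and then at 107, 170 and 134 CPM, without overlap (log2 change 1.68, SE 0.22, adjusted p = 4.71e-05). Cebpd, its partner, went from 164 to 1208 and from 61.7, 64.2 and 69.0 CPM to 291, 276 and 267 CPM (2.10, SE 0.18, adjusted p = 1.17e-06). The late factors had far weaker peaks. Pparg, the master regulator of fat cells, entered at day 7 with 77.3 (rank 6425), and its RNA rose from 37.9, 40.4 and 39.5 CPM to 141, 135 and 129 CPM (1.78, SE 0.14, adjusted p = 4.54e-07). Cebpa entered with 123.03 (rank 4275) and rose by 2.08 (SE 0.16, adjusted p = 6.11e-07). Factors with no peak on either day included Klf15 and Nr1h3, the liver X receptor, which rose by 7.11 (adjusted p = 3.74e-08) and 4.28 (adjusted p = 2.88e-08). Zbtb16, also without a peak, had no count in any day 0 library and 64.0, 44.2 and 56.8 CPM at day 7.

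Transcription factors that restrain adipogenesis were bound in 7 of 21 cases at day 0 (33.3%) and 17 of 21 at day 7 (81.0%). Over all tested genes 23.0% and 59.8% were bound. In RNA 14 of the 21 fell and 2 rose, while over all genes 24.6% fell and 23.8% rose. Klf2, bound on both days (59.9 and 325), fell from 29.5, 28.3 and 30.9 CPM to 15.9, 16.3 and 14.1 CPM (-0.94, adjusted p = 6.33e-05). Twist1 entered at day 7 with 191 and fell (-0.87, adjusted p = 1.84e-05), and Gata2, with a weak day 7 peak of 52.9, fell by 3.03 on the log2 scale. Foxo1, with a day 7 peak of 110, rose (1.66, adjusted p = 1.08e-07). Of the 17 bound members 12 fell and 1, Foxo1, rose, and of the 4 without a peak 2 fell and 1 rose. Among the 16 bound adipogenic factors, in contrast, 10 rose and 2 fell.

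Many genes that make up the fat cell rose without an LSD1 peak. Of 28 tested genes of the adipocyte program, 4 were bound at day 0 (14.3%) and 13 at day 7 (46.4%, beside 59.8% over all tested genes), and 25 rose and 1 fell. At a score of at least 100, 12 of all 30 members were bound at day 7 (40%) beside 41.5% of tested genes, so the lower share was seen with the full list alone. All 15 tested members without a peak rose. They included Adipoq, which encodes adiponectin (0.40, 0.61 and 2.34 CPM, then 479, 458 and 487 CPM, log2 change 8.73, SE 0.41, adjusted p = 6.59e-09), the lipid droplet protein Plin1 (10.09), the fatty acid receptor Cd36 (9.70) and Cidec (8.69), another droplet protein. Bound members included enzymes and droplet proteins of lipid storage too. Plin4 had scores of 51.8 and 3100 at its promoter and Agpat2, a phosphatidic acid enzyme, 75.1 and 370. Acsl1, which activates fatty acids, had 58.7 and 183 and rose from 37.0, 37.9 and 47.4 CPM to 1986, 1740 and 1836 CPM (5.51, SE 0.17, adjusted p = 3.07e-10). Fabp4 (1043), lipoprotein lipase Lpl (892) and the last enzymes of triglyceride synthesis, Dgat2 (376) and Dgat1 (317), entered at day 7. Lpl rose from 690, 604 and 769 CPM to 4864, 4504 and 4420 CPM (2.74, SE 0.14, adjusted p = 1.26e-08). Fasn, the fatty acid synthase, was bound on both days (139 and 365) and did not pass the test in RNA (-0.44, adjusted p = 0.0877).

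Preadipocyte and fibroblast genes were bound in 6 of 23 tested cases at day 0 and 9 of 23 at day 7 (39.1%), and 19 fell and 2 rose. Col1a1, a fibrillar collagen, had 314 and 378 and fell (-1.94, adjusted p = 1.5e-07). Fn1, which encodes fibronectin, had 120 and 212 and fell (-1.88, adjusted p = 4.3e-05). Sparc, a matrix protein, was 1 of the genes with the higher score at day 0 (145 against 76.5) and fell (-1.47, adjusted p = 5.29e-05). Dlk1, the preadipocyte factor, had no peak and fell by 3.17 on the log2 scale. Of 27 tested collagen genes, 7 (25.9%) and 9 (33.3%) were bound, beside 23.0% and 59.8% over all tested genes.

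Genes of brown and beige fat were rarely bound. Of 9 tested members 0 were bound at day 0 and 2 at day 7. Ppargc1a, a coactivator of mitochondrial genes, had a day 7 peak of 335 and rose from 30.4, 27.0 and 29.8 CPM to 62.0, 59.4 and 48.7 CPM (0.96, SE 0.25, adjusted p = 0.00716). Gk, glycerol kinase, had 89.6 and rose by 2.09 (adjusted p = 3.58e-07). Prdm16 and Ucp1 had no promoter peak on either day, and their counts were below the filter for the RNA test.

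In energy metabolism, as over all tested genes, more members were bound at day 7 than at day 0. Nuclear genes of oxidative phosphorylation were bound in 14 of 91 tested cases at day 0 (15.4%) and 63 of 91 at day 7 (69.2%), and 48 rose and 4 fell. Ndufa6, a complex I subunit, had a day 7 peak of 443, and its RNA rose from 81.3, 97.4 and 85.3 CPM to 134, 139 and 134 CPM (0.62, adjusted p = 0.00208). Genes of the mitochondrial ribosome were bound in 14 and 60 of 78, and 33 rose and 4 fell. Aminoacyl tRNA synthetases, which charge tRNAs, were bound in 5 of 37 at day 0 (13.5%) and 31 of 37 at day 7 (83.8%), and 9 rose and 10 fell. The tricarboxylic acid cycle had 5 and 15 of 19, and 17 of the 19 rose. Pcx, pyruvate carboxylase, had 79.0 and 54.5 and rose by 3.32 (adjusted p = 9.18e-09). Idh3a, a subunit of isocitrate dehydrogenase, and Tfam, which packages mitochondrial DNA, were in the day 0 list alone (53.0 and 61.8) and rose by 1.64 and 0.80. Fatty acid oxidation had 6 and 16 of 21, with 16 higher and 1 lower.

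With the full list, the cytosolic ribosome and glycolysis had the highest day 7 shares among the lists with at least 15 members tested in RNA. At a score of at least 100, shares were counted over all members of a list, tested in RNA or not. They were 87.0% for AP-1 and immediate early factors (20 of 23), 83.8% for the cytosolic ribosome and 83.3% for glycolysis. With the full list, the shares over all members were 87.0%, 92.5% and 88.9%. This base differs from that of the tested members, so the order at this score cannot be compared with the order by tested members. No list was tested against the others, and some genes belong to more than 1 list. Glycolytic genes were bound in 7 of 17 tested cases at day 0 and 16 at day 7 (94.1%), and 10 rose. Hk2, hexokinase 2, entered with 271 and rose from 11.3, 14.4 and 14.3 CPM to 114, 101 and 125 CPM (3.09, SE 0.23, adjusted p = 3.15e-07). Aldoa, an aldolase, entered with 578 and rose by 1.55 (adjusted p = 1.31e-05). Genes of the cytosolic ribosome were bound in 46 of 77 at day 0 (59.7%) and 74 of 77 at day 7 (96.1%). Rps10 had 191 and 749, and Rpl8 entered with 608. In RNA 14 of the 77 rose and 22 fell, but many of these genes have near-identical copies, so their counts are uncertain. Core and linker histone genes were bound in 16 and 23 of 25 tested cases, while of all 80 members 32 and 62 were bound.

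Genes of the integrated and endoplasmic reticulum stress responses were bound in 13 of 23 cases at day 0 (56.5%) and 21 at day 7 (91.3%), with 6 higher and 9 lower. Atf4, the central factor of the integrated stress response, had 212 and 679 and fell from 351, 378 and 348 CPM to 198, 260 and 224 CPM (-0.66, SE 0.15, adjusted p = 0.0032). Herpud1, an endoplasmic reticulum protein, had 141 and 977 and fell (-0.62, adjusted p = 0.00143). AP-1 and immediate early factors were bound in 11 and 20 of 23. Jund had 185 and 1627 and fell from 116, 122 and 132 CPM to 80.5, 82.0 and 69.0 CPM (-0.68, adjusted p = 0.0014). Junb had 132 and 1313 without passing the test (-0.05, adjusted p = 0.694). Of 13 glucocorticoid response genes, 5 and 11 were bound, and 12 rose and 1 fell. Fkbp5, a chaperone of the receptor, had 97.1 and 146 and rose by 3.16 (adjusted p = 2.58e-09). Tsc22d3 entered with 248 and rose by 2.77 (adjusted p = 5.48e-09). Mt1 rose from 500, 596 and 516 CPM to 1720, 1921 and 1228 CPM (1.59, SE 0.26, adjusted p = 0.000289), and Ddit4 from 34.5, 34.3 and 35.7 CPM to 155, 154 and 176 CPM (2.22, SE 0.09, adjusted p = 2.47e-09). Dusp1, a phosphatase of MAP kinases, went from 70.2 to 1591 with a smaller rise (0.45, adjusted p = 0.0368), a call lost in 5 of the 6 fits that leave out 1 control library (adjusted p 0.051 to 0.16).

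Regulators of chromatin and transcription held some wide peaks. Chromatin enzymes and remodellers had 33 and 74 of 95 tested genes (34.7% and 77.9%), with 12 higher and 27 lower in RNA. Setd1b, a histone H3 lysine 4 methyltransferase, had 200 and 1322 on a day 7 peak of 7483 bases. RNA polymerase and general transcription had 30 and 72 of 100, and splicing factors 16 and 36 of 47 (34.0% and 76.6%). Zinc finger genes with Zfp symbols had 84 and 209 of 336 (62.2% at day 7), near the 23.0% and 59.8% of all tested genes.

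Fewer members were bound in lists of mitosis and of the immune response. Mitosis genes were bound in 3 and 6 of 25 (24.0% at day 7), with 14 lower, and interferon response genes in 3 and 6 of 22 (27.3%), with 15 higher. Chemokines and inflammation had 6 and 8 of 30 (26.7%). Developmental transcription factors had 14 and 31 of 62 tested genes, while of all 162 members 15 and 33 were bound. Skeletal muscle and endothelial markers had 0 bound members of 8 and 7, and of 7 macrophage markers Cd14 and Cd68 were bound at day 7.

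**Figure D5:**
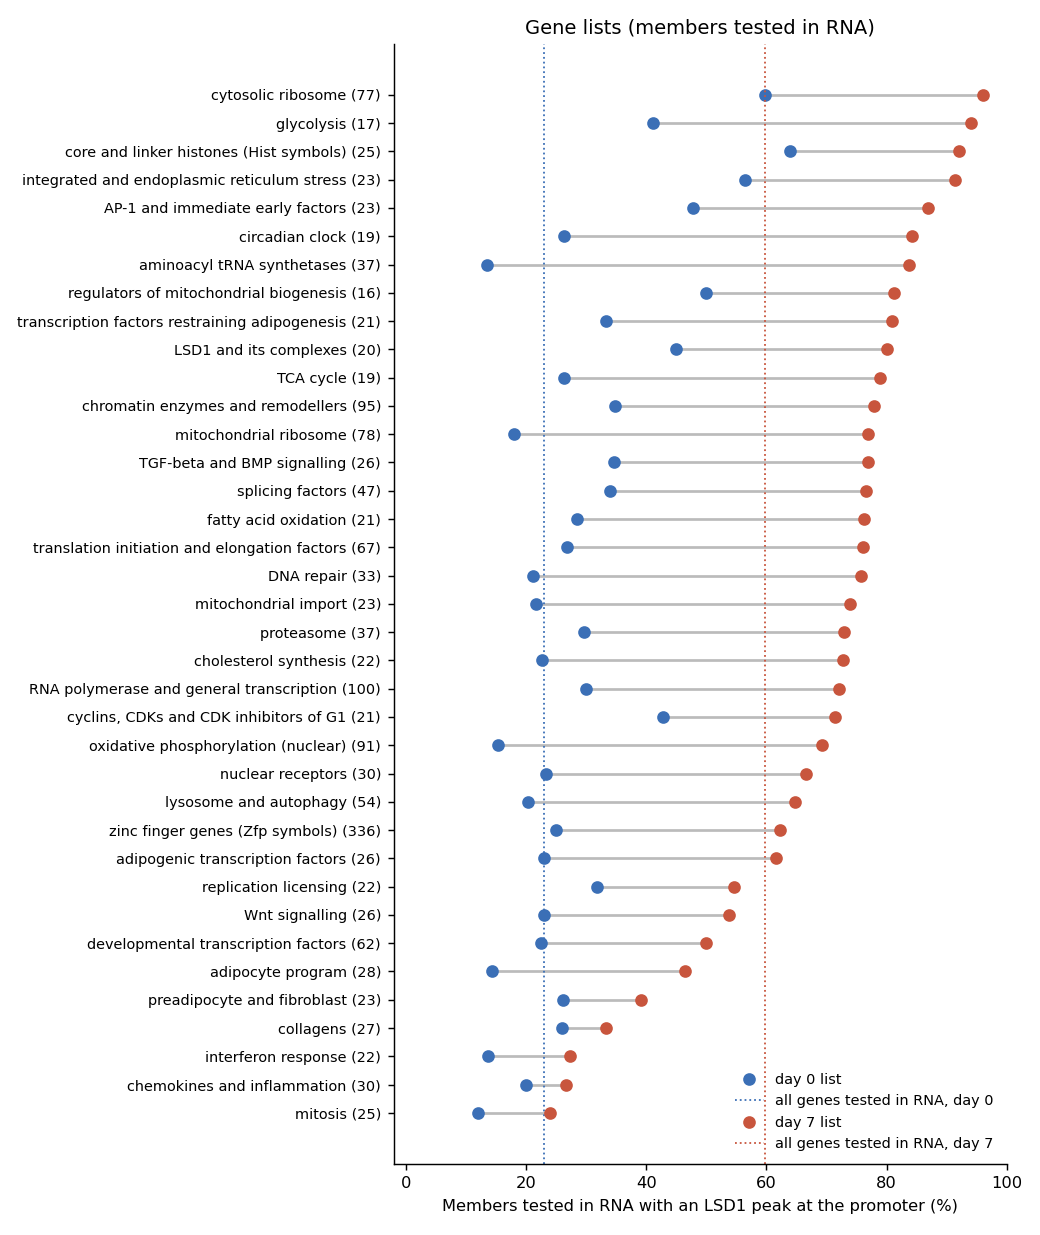
Share of members (%) with an LSD1 promoter peak at day 0 (blue) and day 7 (red) for the lists with at least 15 members tested in RNA, whose number is in brackets; dotted lines mark 23.0% and 59.8%, the shares of all genes tested in RNA. Cytosolic ribosome reaches 96.1% at day 7 and mitosis 24.0%, and the day 7 point lies to the right of the day 0 point in every list drawn.

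In the class bound on both days, the largest rises after Acsl1 were those of Bnip3, a mitophagy receptor (scores 53.1 and 207, log2 change 4.60, adjusted p = 1.12e-09), Gpat3, an acyltransferase of triglyceride synthesis (96.8 and 253, 4.48), Glul, glutamine synthetase (56.8 and 583, 4.04), and Nabp1 (80.3 and 809, 3.33). The largest falls were those of Nrg1, a growth factor that went from 88.3, 81.2 and 84.1 CPM to 4.97, 5.08 and 4.65 CPM (-4.11, SE 0.16, adjusted p = 1.34e-09), Thbs1, thrombospondin (-3.02), and Fbn1, fibrillin (-2.52). Their scores were modest: 77.0 and 103 for Nrg1, 71.9 and 89.8 for Thbs1 and 101 and 72.5 for Fbn1.

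In the class bound at day 7 alone the largest rises were those of Mrap, Fabp4, Lcn2, A530016L24Rik and Ifi207. Mrap, an accessory protein of the ACTH receptor, had a score of 57.4 and rose by 8.62, from 0, 0.12 and 0.24 CPM to 54.5, 51.3 and 43.1 CPM (adjusted p = 1.02e-09). Lcn2, lipocalin 2, had 85.6 and rose by 7.99 (adjusted p = 3.07e-10). The largest falls were those of Kif26b (-2.87, score 50.4), Gfod1 (-2.77, score 78.7), Efnb2, a guidance ligand (-2.75, score 237), Etv5, an ETS factor (-2.67, score 320), and Mn1 (-2.66, score 162). Among these 5 genes, which fell, Etv5 had the highest score.

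With the full lists 287 promoters were bound at day 0 alone, and with the day 7 list reduced to the day 0 length 1470 were, so this class depends on the length of the day 7 list. The 287 promoters were led by Tnp2, a sperm chromatin protein, at 207, Ap2s1 at 190, N4bp2l2 at 154 and Cenpj at 143. Ap2s1 fell from 134, 163 and 150 CPM to 102, 99.8 and 111 CPM (-0.52, adjusted p = 0.0445) and Cenpj rose (0.43, adjusted p = 0.0339), and both calls were lost under some alternatives. The largest rises were those of Clca3a1 (2.08), Idh3a and Wnk4, a kinase of ion transport (1.45). The largest falls were those of Sema3f, a guidance factor (-2.94), Matn4, a matrix protein (-2.33), and Vcam1, an adhesion receptor that went from 430, 436 and 455 CPM to 96.6, 94.0 and 101 CPM (-2.18, SE 0.12, adjusted p = 2.66e-08). Scores of these genes lay between 51.4 for Vcam1 and 65.9 for Clca3a1. Cxcl12, a chemokine, had 111 and fell (-0.72, adjusted p = 0.00088).

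The other LSD1 lists of the series bear on what belongs to 1 day alone. They come from 1 sample each, of the cells labelled as overexpressing LSD1, and are longer (13997 peaks at day 0 and 27221 at day 7). In RNA the label was not followed on both days: Kdm1a stood at 90.8, 106 and 101 CPM in the labelled libraries at day 0, above the control values, and at 55.0, 56.1 and 55.1 CPM at day 7, below them. Of the 5747 peaks found at day 7 and not at day 0 in control cells, 4864 (84.6%, Wilson 95% interval 83.7% to 85.5%) overlapped the labelled day 0 list, and 5539 (96.4%) the labelled day 7 list. Of the 473 peaks of day 0 alone, 62.4% and 78.9% did. The interval covers counting error only. By promoter, the labelled day 0 list held 90.4% of the protein-coding genes bound at day 7 alone in control cells. It held 14.8% of those bound on neither day and 44.2% of all protein-coding genes. Most sites that control cells showed at day 7 alone were therefore present in a day 0 list of the same line, so their absence at day 0 in control cells was not shared by both cell labels.

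A smaller group kept its day in both labels. By promoter, 474 of the 5083 tested genes bound at day 7 alone (9.33%) had a peak in both day 7 lists and in neither day 0 list. Of the 474, 27.0% rose and 23.6% fell, beside 23.8% and 24.6% over all tested genes. Their median RNA level was 8.43 CPM per kb, against 14.7 for genes of day 7 alone found in the labelled day 0 list. The part of RNA level in the shares below was not tested. The group, formed after the lists had been seen, held Fabp4, Mrap, Lcn2, Adig, Agt and Etv5. Among the 27 genes bound at day 7 alone that rose by more than 3 on the log2 scale, 12 (44.4%) belonged to it, against 379 of 4393 (8.63%) that changed by at most 1. The share was 11.5% for rises of 1 to 2 and 17.2% for rises of 2 to 3. For falls it was 12.6% for those of 1 to 2 and 15.8% (3 of 19 genes) for those of more than 2. The opposite pattern, a peak in both day 0 lists and in neither day 7 list, was found at 5 tested genes: Adamts7, Ahr, Clca3a1, Ndrg1 and Ppl. The Agt intron peak and the Fabp4 peak were absent from both day 0 lists and had 3100 in the labelled day 7 list. The ribosomal RNA peak of day 0 was absent from the labelled day 0 list and present in the labelled day 7 list with 3100.

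Nrf1 lists overlapped a minority of these sites. The day 0 and day 7 Nrf1 lists hold 2078 and 1629 peaks, and for the latter the title (LSD1 cells) and the genotype (Control) do not match. Of the day 0 LSD1 peaks 16.2% overlapped the Nrf1 peaks of day 0, and of the day 7 LSD1 peaks 15.7% overlapped those of day 7. Promoters in the day 7 Nrf1 list were 20.8% of the genes bound by LSD1 on both days, 17.6% of those bound at day 7 alone and 1.77% of those bound on neither day, against 8.13% of all protein-coding genes.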

How the data were processed

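LSD1 ChIP-seq peak lists, Nrf1 peak lists and RNA-seq counts of 3T3-L1 cells were used as the authors deposited them. Per the submitters' processing notes, reads were mapped to mm10 (Bowtie2 for ChIP, TopHat2 2 for RNA) and peaks were called with MACS 1.41. The extract protocol in the labels names bowtie. The authors deposited 1 list per sample with a score per peak whose scale and threshold are not given in the sources used here, nor are the ChIP depth and the use of the labelled input samples, which are not analysed here. RNA values are whole-number counts per RefSeq transcript, as the authors deposited them; HOMER, edgeR and DESeq 1.8.3 are listed in the processing notes. 1377 of 30521 transcript rows matched no RefSeq gene (1.15% of counts) and were left out, and for each of 23024 genes the row of the transcript with most counts over all libraries was used.

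Peaks were assigned to RefSeq genes of GRCm38 (start sites ± 1 kb, overlap of at least 1 base) with Python 3.11.15 and pandas 2.3.3. RNA was tested in all 12 libraries with edgeR 4.0.16 in R 4.3.3 (filterByExpr, TMM, quasi-likelihood, Benjamini-Hochberg, threshold 0.05), after a test on simulated counts; DESeq2 1.42.0 was an alternative. The titles call RNA replicates biological. Members and lists were chosen with earlier results of these data known. Genes named are the highest scores and largest RNA changes per class of binding, the widest and strongest non-promoter peaks, up to 4 members per list and class, and a fixed set (Kdm1a, Rcor1, Nrf1, C/EBP genes, Pparg, Adipoq, Fabp4, Ppargc1a, Prdm16, Ucp1). Btg1, Cd36, Cidec, Dlk1, Gata2, Klf2, Klf15, Nr1h3, Plin1, Zbtb16, the other genes covered by a peak and those present in both labels at 1 day alone were named after their values were seen, as were the classes over 4 lists formed. Some items that these rules name are not reported here.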

Additional observations from a re-analysis of the deposited data

How the results depend on the processing

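A score of at least 100 left 751 peaks at day 0 and 5229 at day 7, of which 12.1% of the day 7 peaks overlapped a day 0 peak. Promoter shares then were 93.7% and 92.9%, intergenic shares 4.39% and 4.55%. Bound genes fell to 898 at day 0, with 779 on both days and 119 at day 0 alone, and list members bound at day 0 to 143; over the lists, 50 of 88 counts of bound members (2 days each) moved. Of genes bound on both days 154 were called higher and 218 lower, and of those at day 0 alone 26 and 32. A reciprocal overlap of 50% gave 77.2% of day 0 and 28.1% of day 7 peaks shared. With the day 7 list cut to its highest scores at the day 0 length, 48.8% and 48.1% were shared, and 3578 genes were bound at day 7, 1809 on both days, 1769 at day 7 alone and 1470 at day 0 alone. The near absence of sites at day 0 alone therefore depends on the length of the day 7 list. Promoter shares were 87.2% and 86.1% with 500 bases on either side, 86.7% and 85.4% by midpoint, and 89.0% at day 7 with 2 kb, with 6.59% intergenic.

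With only the control libraries in the edgeR fit, 4354 genes were called higher, of which 913 were bound on both days and 85 at day 0 alone. With a replicate block 2900 genes were higher and 3026 lower, and DESeq2 called 3183 and 3503. Leaving out 1 control library gave 2492 to 2659 higher and 2669 to 2791 lower. The labels do not say that a replicate number pairs the samples of the 2 days. Residual correlations of same-numbered libraries were 0.13, 0.05 and -0.06, and those of differently numbered ones ranged from -0.20 to 0.12. With 3 libraries per day these values cannot show whether the numbers pair the samples. No named gene reversed. Calls lost in at least 1 alternative were those of Ap2s1, Cenpj, Kdm1a, Nrf1, Dusp1, Zmym2, Sqle, Myc and Cdkn1a; for example the log2 change of Kdm1a was -0.26 under the replicate block and that of Dusp1 0.33 without the second day 7 library, neither past the threshold. Rcor1 (-0.33), Fasn (-0.40) and Insig1 (-0.45) passed it with only the control libraries. Depth of the ChIP libraries is not given, so absence from a list is not absence of binding.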

Other observations

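Further lists held members bound at day 7 that changed in opposite directions. Clock genes were bound in 5 of 19 tested cases at day 0 and 16 at day 7, and 8 rose and 3 fell. Nfil3, a repressor of the clock output, entered with a score of 538 and rose from 10.4, 11.8 and 10.7 CPM to 61.4, 59.9 and 60.4 CPM (log2 change 2.47, edgeR adjusted p = 1.86e-05), and Per1 entered with 90.2 and rose (1.24, adjusted p = 2.38e-06). Genes of cholesterol synthesis were bound in 5 and 16 of 22, and 1 rose and 10 fell. Insig1, a sterol sensor partner, had 278 and 770 without passing the test (-0.49, adjusted p = 0.268), while the enzyme Sqle (180 at day 7, -0.67, adjusted p = 0.0299) fell, a call lost in each of the 6 fits that leave out 1 control library (adjusted p 0.0566 to 0.0861). Smad3, which carries TGF-beta signals, entered with 256 and fell (-1.50, adjusted p = 1.79e-07). Myc had 99.8 and 732 and rose (0.81, adjusted p = 0.0173), and Cdkn1a, an inhibitor of cell cycle kinases, had 120 and 1014 and rose (0.38, adjusted p = 0.0185). Leaving out 1 control library ended the call of Myc in 2 of 6 fits (adjusted p 0.0578 and 0.0602) and that of Cdkn1a in 4 (0.0513 to 0.0874).

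The lipid genes Lpin1 (96.9), Abca1 (68.9) and Scarb1 (148.83) were bound at day 7 in both cell labels and in neither day 0 list, and rose by 2.43, 2.31 and 2.03. They were picked from the 474 tested genes with this pattern, of which 27.0% rose and 23.6% fell. Over all tested genes 23.8% rose and 24.6% fell.

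Bound shares differed between chromosomes. On chromosome X, 12 of 426 tested genes were bound at day 0 (2.82%) and 116 at day 7 (27.2%), the lowest shares of the 20 chromosomes. Among the autosomes the day 0 share ranged from 14.3% on chromosome 4 to 36.0% on chromosome 17, and the day 7 share from 50.8% on chromosome 7 to 73.1% on chromosome 8.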
